A study of Homo sapiens with 12 samples.

Results

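Expression of 9 genes of retinoid handling, RBP4, CRABP2, RDH5, DHRS3, ADH4, ADH6, ALDH1A1, AOX1 and RARA, was followed in human liver spheroid co-cultures with and without exposure to 1% total parenteral nutrition (TPN). The 9 genes were chosen by name from the 16705 genes of the expression table, each with 1 row, and all 9 were among the 11713 genes that passed the filter for testing, a mean of at least 0.5 FPKM over the 12 libraries. FPKM counts fragments relative to the length of the transcript and the number of fragments mapped, so levels of different genes can be set side by side. CRABP2 passed that filter only through 1 group: its mean was 0.587 FPKM over all libraries and 0.24 FPKM without the spheroids exposed for 144 h.

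The spheroids combined HepG2/C3A cells, a hepatocyte-like clone of a human hepatoma line, with LX-2 cells, which come from human hepatic stellate cells, in a medium with fetal bovine serum that all groups shared. There were 3 libraries in each of 4 groups: untreated spheroids at 24 h, spheroids exposed to 1% TPN for 24 h, untreated spheroids at 144 h, and spheroids exposed to 1% TPN for 144 h. The TPN was a clinical mixture of amino acids with electrolytes, glucose and a lipid emulsion, with trace elements and preparations of water-soluble and fat-soluble vitamins, the class to which vitamin A belongs. RNA of many spheroids was pooled for each library, and each cell type was a single line, so the replicates carry no difference between donors. The study gives them as independent experiments, and culture age and exposure time run together.

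Vitamin A circulates as retinol, bound to a carrier protein made by hepatocytes, and is stored in the liver as retinyl esters, mainly in stellate cells. Inside cells retinol is oxidised reversibly to retinal and retinal irreversibly to retinoic acid, which binds nuclear receptors and alters transcription of target genes. Some of those targets bind or remove retinoids themselves, which makes the pathway partly self-limiting.

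The libraries were similar in depth, at an estimated 1.82e+07 to 1.92e+07 fragments, at which 1 fragment on a transcript of 2000 bases is worth 0.0309 FPKM. Of the 10 hepatocyte markers, CYP7A1 was near 0 and the other 9 were tested. Of the 12 stellate cell or fibroblast markers 9 were tested, while DES, a defining marker, stayed at a mean of 0.03 to 0.06 FPKM per group. LRAT, the enzyme that forms retinyl esters in stellate cells, was at a mean of 0 FPKM in 3 groups and of 0.00333 FPKM in the fourth.

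In untreated spheroids at 24 h the 9 genes spanned levels from 0.153 to 583 FPKM. RBP4 was highest, at 583 ± 22.5 FPKM (mean ± SD, n = 3, as throughout) and above 98.8% of the genes tested. ALDH1A1 followed at 263 ± 6.14, DHRS3 at 52.8 ± 1.53, ADH6 at 30.6 ± 1.07 and AOX1 at 9.1 ± 0.728 FPKM. RARA, at 4.34 ± 0.106, and ADH4, at 4.22 ± 0.366 FPKM, overlapped in their libraries and could not be ordered. RDH5 stood at 3.22 ± 0.195 and CRABP2 at 0.153 ± 0.0751 FPKM. After 144 h of exposure the order was different: AOX1 (13.7 ± 0.379 FPKM) stood above ADH6 (9.07 ± 0.242 FPKM), ADH4 (2.88 ± 0.587 FPKM) no longer overlapped with RARA (4.38 ± 0.262 FPKM) and lay below it, and CRABP2 (1.63 ± 0.0929 FPKM) overlapped with RDH5 (1.81 ± 0.284 FPKM). In untreated spheroids at 144 h ADH4 (1.51 ± 0.117 FPKM) also lay below RARA (4.24 ± 0.113 FPKM). There AOX1 (7.51 ± 0.237 FPKM) stood below ADH6 (14.4 ± 0.982 FPKM) and CRABP2 (0.363 ± 0.246 FPKM) below RDH5 (2.77 ± 0.506 FPKM).

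**Figure D1:**
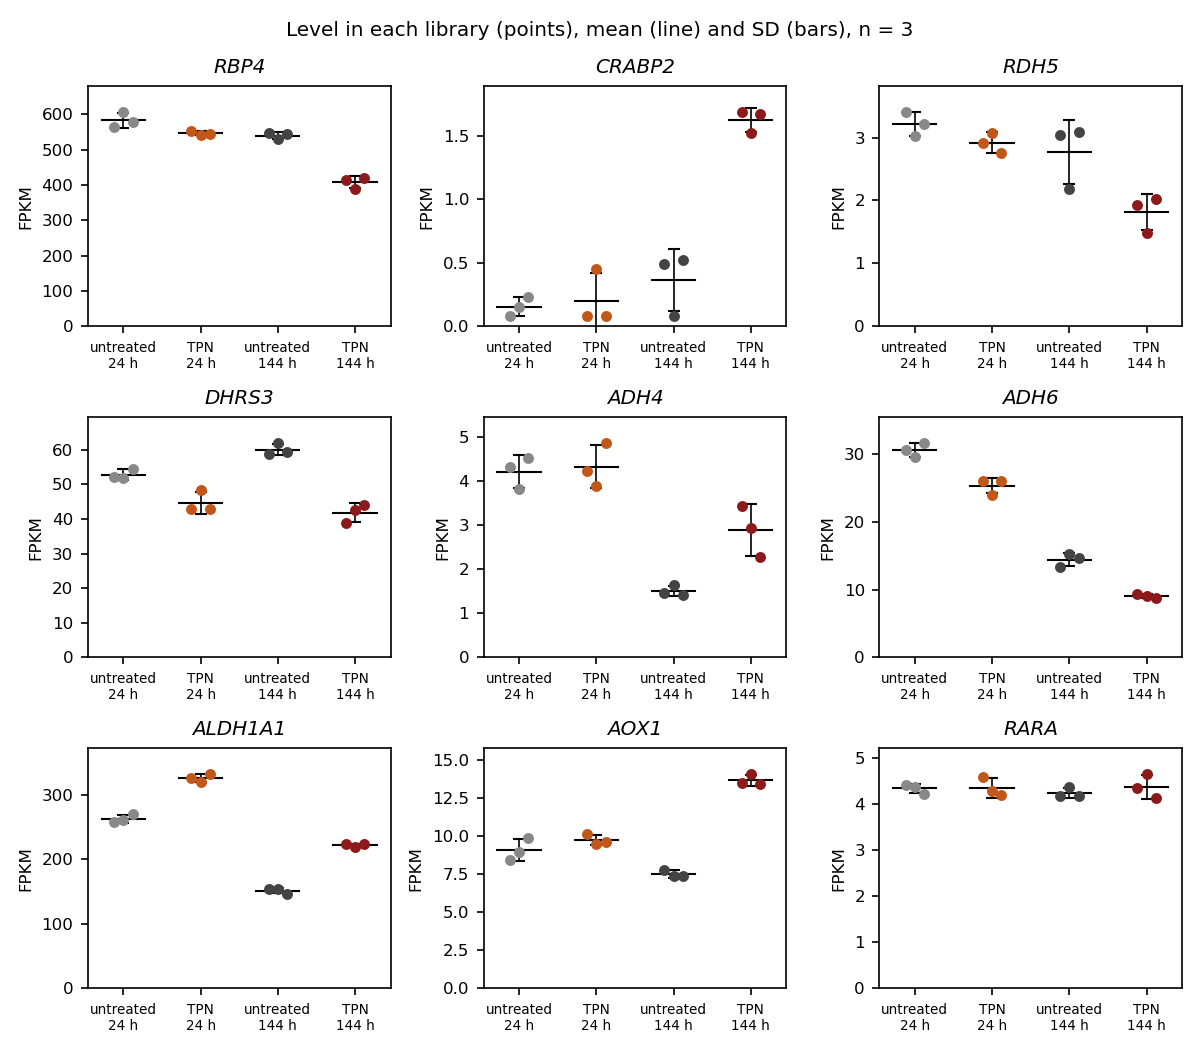
FPKM of each of the 9 genes in each library (points) with the mean (line) and SD (bars) of the 3 libraries of a group, on linear axes from 0. CRABP2 sits between 1.52 and 1.69 FPKM in the 3 spheroid libraries exposed for 144 h and at 0.52 FPKM or below in the other 9, while RARA stays between 4.14 and 4.66 FPKM in all 12.

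After 24 h of exposure, 1 of the 9 genes rose (ALDH1A1), 2 fell (ADH6 and DHRS3) and none passed the threshold for a differentially expressed gene (DEG). A gene was taken to have changed at a limma adjusted p below 0.05, and as a DEG if its log2 fold change also exceeded 0.58 in either direction. Among all genes tested, 10.5% changed (5.04% higher, 5.46% lower) and 0.914% were DEGs at 24 h. At an unadjusted p below 0.05 the count at 24 h was 4 of 9, with RBP4 as the addition, against 23.9% of all genes tested. After 144 h, 4 of the 9 genes rose (CRABP2, ADH4, ALDH1A1 and AOX1) and 4 fell (RBP4, RDH5, DHRS3 and ADH6), against 52.5% of all genes tested, 24.2% higher and 28.3% lower. Of these, 5 were DEGs, CRABP2, ADH4 and AOX1 upwards and RDH5 and ADH6 downwards, against 9.48% of all genes tested (5.75% higher, 3.73% lower). CRABP2 could enter this count only by being high after 144 h of TPN; of the other 8 genes 3 rose, 4 fell and 4 were DEGs, against 52.3% and 9.09% of the 11632 genes that met the filter without those libraries, a requirement added after the data were seen. The exposed and untreated libraries did not overlap in 4 of the 9 genes at 24 h and in 8 at 144 h, where 29.9% and 57.3% of all genes tested showed this. The 9 genes had a median log2 fold change of 0.00 (24 h) and 0.04 (144 h), beside -0.004 and -0.018 over all genes tested; without CRABP2 it was -0.04 and -0.18. Both directions occurred at 144 h among the enzymes that interconvert retinol and retinal, where ADH4 rose and RDH5, DHRS3 and ADH6 fell.

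**Figure D2:**
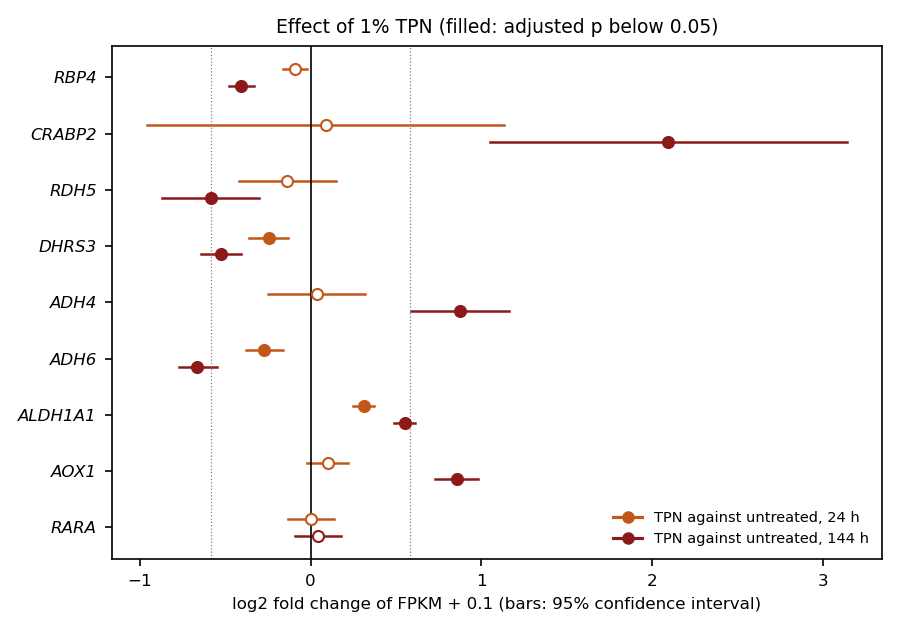
Log2 fold change (FPKM + 0.1) of TPN-exposed against untreated spheroids at 24 h and at 144 h for the 9 genes; lines are 95% confidence intervals, filled points have an adjusted p below 0.05, and dotted lines mark the DEG threshold of 0.58. ADH4 and ADH6 lie on opposite sides of 0 at 144 h, at 0.88 and -0.66, and RARA lies near 0 at both times.

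RBP4 (gene 5950, chr10:93591694-93601744, GRCh38.p13) encodes the protein that carries retinol in plasma, and hepatocytes are its main source. In untreated spheroids at 24 h it measured 563.38, 607.29 and 577.03 FPKM, and after 24 h of exposure 553.46, 542.42 and 544.87 FPKM. The exposed libraries were all lower, but the difference did not pass the test (log2 fold change -0.09 with a standard error, SE, of 0.034; limma adjusted p = 0.117). At 144 h RBP4 measured 545.77, 528.79 and 543.68 FPKM without and 414.91, 387.83 and 419.26 FPKM with TPN. It fell by 24.5% (log2 fold change -0.41, SE 0.034, limma adjusted p = 3.88e-07), with every exposed library below every untreated one. Hepatocyte markers moved with it: their summed level ranged from 1.28e+04 to 1.38e+04 FPKM in untreated and from 1.01e+04 to 1.08e+04 FPKM in exposed spheroids at 144 h, and 7 of the 9 tested fell, with a median log2 fold change of -0.27. Of the 9 stellate cell or fibroblast markers tested, 4 fell with TPN at 144 h, the collagens COL1A1 (-1.25 on the log2 scale), COL3A1 (-1.40) and COL1A2 (-1.07) and the receptor PDGFRB (-0.40), and LOX, a matrix cross-linking enzyme, rose (0.18). These collagens were low at 144 h, with means of 1.92, 0.503 and 0.273 FPKM without and 0.747, 0.127 and 0.09 FPKM with TPN. ACTA2 (-0.08), SPARC (0.06), TAGLN (-0.05) and THY1 (-0.38) did not pass the test. The summed level of that list, most of it LOX (146 ± 4.02 without and 166 ± 0.787 FPKM with TPN), ran from 216 to 225 FPKM without and from 236 to 238 FPKM with TPN. That of the macrophage or leukocyte markers ran from 49 to 49.5 and from 63.2 to 66.2 FPKM, carried by CD68, a lysosomal protein found in other cells as well, which rose from 47.8 ± 0.483 to 63.7 ± 1.47 FPKM (limma adjusted p = 1.84e-07) and had risen at 24 h (0.17 on the log2 scale, limma adjusted p = 0.00373). PTPRC, which defines leukocytes, did not exceed 0.02 FPKM at 144 h. Among all genes tested 28.3% fell and 24.2% rose at 144 h, a background that applies to each list of genes counted below, beside 5.46% and 5.04% at 24 h. The part of these shifts in the falls of RBP4, ADH6, DHRS3 and TTR was not tested, and in bulk RNA fewer cells of a type and less RNA per cell cannot be told apart. FFAR4, which overlaps RBP4 on the other strand, did not exceed 0.04 FPKM.

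TTR, which encodes the thyroxine carrier that binds RBP4 in plasma, fell at both times, from 379 ± 9.87 to 298 ± 17.8 FPKM at 24 h (-0.35 on the log2 scale, limma adjusted p = 0.000194) and from 487 ± 22.7 to 343 ± 10.8 FPKM at 144 h (-0.51 on the log2 scale, limma adjusted p = 5.87e-07). The ratio of RBP4 to TTR in a library, which no scaling of a library by 1 factor can move, ran from 1.45 to 1.60 in untreated and from 1.76 to 1.96 in exposed spheroids at 24 h. At 144 h it ran from 1.07 to 1.14 without and from 1.17 to 1.21 with TPN. RBP4 transcripts thus outnumbered those of TTR per length in all 12 libraries, by a margin that was wider with TPN at both times.

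CRABP2 (gene 1382, chr1:156689676-156705784) encodes a cytosolic protein that delivers retinoic acid to its nuclear receptors and is itself induced by retinoic acid in many cells. Its level was low, at 0.08, 0.15 and 0.23 FPKM in untreated and 0.08, 0.45 and 0.08 FPKM in exposed spheroids at 24 h. At 144 h it measured 0.49, 0.08 and 0.52 FPKM without TPN and 1.69, 1.52 and 1.67 FPKM with TPN. Most values lay near whole steps of 0.076 FPKM, a size estimated from these same values, but replicates 1 and 3 of the untreated spheroids at 144 h lay between steps, at 6.4 and 6.8. Read at that step, the exposed libraries at 144 h held an estimated 20 to 22.2 fragments each and every other library at most 6.8. CRABP2 rose 4.48-fold on the means at 144 h (log2 fold change 2.09 with a 95% confidence interval from 1.05 to 3.14, limma adjusted p = 0.0025), a larger change in size than that of 99.7% of the genes tested. Since the gene was tested only because of its level in the exposed libraries at 144 h, these values describe the libraries and their p is too favourable. The log2 fold change ranged from 0.96, with a pseudocount of 1, to 2.51 over the alternatives. At 24 h its log2 fold change was 0.09 with an interval from -0.96 to 1.13, so a change of up to about that size was not detectable at this depth. The transcripts behind this row were 5, of which 3 carry identifiers of non-coding RNA. The row's span reaches beyond the RefSeq gene, to the start of a non-coding gene on the opposite strand, and its strand is given opposite to RefSeq, so a share of these few fragments may belong to non-coding transcripts, which was not tested.

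Among the 9 carriers and binding proteins listed for comparison, 7 were tested, with 1 fall at 24 h (TTR), and 2 rises and 4 falls at 144 h around a median of -0.11 on the log2 scale; without CRABP2, which the filter let in only through its rise, it was 1 rise and 4 falls among 6 and a median of -0.26. RBP2, a cellular retinol-binding protein, rose with CRABP2, from 2.35 ± 0.81 to 4.97 ± 0.349 FPKM at 144 h (1.10 on the log2 scale, limma adjusted p = 0.000106). RBP5, a related cellular retinol-binding protein, fell from 11.4 ± 0.151 to 5.99 ± 0.879 FPKM (log2 fold change -0.92, limma adjusted p = 4.97e-07). The binding proteins inside cells therefore moved in both directions. STRA6, the receptor that takes up retinol from RBP4, measured 2.32 ± 0.359 without and 2.2 ± 0.0379 FPKM with TPN at 144 h (limma adjusted p = 0.771).

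RDH5 and DHRS3 belong to the short-chain dehydrogenases and reductases that interconvert retinol and retinal. RDH5 (gene 5959, chr12:55720393-55724705), best known as the 11-cis-retinol dehydrogenase of the eye, oxidises retinol. It measured 3.41, 3.02 and 3.22 FPKM in untreated and 2.92, 3.08 and 2.75 FPKM in exposed spheroids at 24 h, which overlap (log2 fold change -0.14, limma adjusted p = 0.591). The values at 144 h were 3.04, 2.19 and 3.09 FPKM without and 1.93, 1.49 and 2.02 FPKM with TPN. RDH5 fell by 34.6% (log2 fold change -0.58, SE 0.132, limma adjusted p = 0.00224), at the edge of the DEG threshold. It was no longer a DEG with a pseudocount of 1 or without replicate 1 or 3 of the untreated or replicate 2 of the exposed spheroids at 144 h, with values over all alternatives from -0.74 to -0.42. A read-through gene shares its strand and span in the GENCODE annotation, and the values cannot separate them.

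DHRS3 (gene 9249, chr1:12567910-12631397) reduces retinal back to retinol, and retinoic acid is known to induce it. It measured 52.18, 51.73 and 54.58 FPKM in untreated and 42.85, 48.27 and 42.81 FPKM in exposed spheroids at 24 h. Every exposed library was lower (log2 fold change -0.24, SE 0.053, limma adjusted p = 0.00958). At 144 h DHRS3 measured 58.93, 62.05 and 59.26 FPKM without and 38.74, 42.62 and 44.18 FPKM with TPN, a fall of larger size (log2 fold change -0.52, SE 0.053, limma adjusted p = 2.5e-06). The row's span ends past the RefSeq gene, its strand is given opposite to RefSeq, and 6 of its 11 transcripts carry identifiers of non-coding RNA.

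ADH4 and ADH6 are alcohol dehydrogenases of the cluster on chromosome 4, lie 44.8 kb apart by the spans of their rows, and moved in opposite directions with TPN. Class II ADH4 oxidises retinol to retinal as well as ethanol, and ADH6 is a liver-expressed class V member whose substrates are less well known. ADH4 (gene 127, chr4:99123658-99157792) measured 4.32, 3.81 and 4.52 FPKM in untreated and 4.23, 3.89 and 4.87 FPKM in exposed spheroids at 24 h, which overlap (log2 fold change 0.03, limma adjusted p = 0.91). At the later time it measured 1.46, 1.64 and 1.42 FPKM without and 3.44, 2.94 and 2.27 FPKM with TPN. ADH4 was 1.91-fold higher on the means (log2 fold change 0.88, SE 0.131, limma adjusted p = 8.27e-05), with no overlap between the groups.

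ADH6 (gene 130, chr4:99202639-99219246) measured 30.63, 29.55 and 31.68 FPKM in untreated and 26.06, 24.02 and 25.98 FPKM in exposed spheroids at 24 h. It was lower in every exposed library (log2 fold change -0.27, SE 0.052, limma adjusted p = 0.00407). The 144 h libraries were at 13.37, 15.31 and 14.6 FPKM without and 9.29, 9.1 and 8.81 FPKM with TPN, and fell by 37.2% (log2 fold change -0.66, SE 0.052, limma adjusted p = 1.99e-07). The ratio of ADH6 to ADH4 within a library put both changes together: it ran from 7.01 to 7.76 in untreated and from 5.33 to 6.17 in exposed spheroids at 24 h, and from 9.16 to 10.3 in untreated and from 2.7 to 3.88 in exposed spheroids at 144 h. ADH6 thus remained the more abundant of the pair per length in all 12 libraries, by the smallest margin after 144 h of TPN. A non-coding gene on the opposite strand spans both genes in the GENCODE annotation, and 2 of the 5 ADH4 and 3 of the 6 ADH6 transcripts in the table carry identifiers of non-coding RNA, as do 3 of the 7 of AOX1 and 13 of the 23 of RARA. The table gives ADH6 on the strand opposite to RefSeq, and what non-coding transcripts add to any of these values was not tested.

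The 250 bases upstream of the RefSeq starts of ADH4 and ADH6 are given because these neighbours responded in opposite directions, and those of ALDH1A1 because its profile over the 12 libraries was the closest to that of ADH4 among the 9 genes (Pearson r = 0.94, a description). They are from RefSeq, build GRCh38.p14, written 5′ to 3′ on the strand of the gene, with capitals marking CCAAT and TATAAA on either strand, which read ATTGG or TTTATA where they lie on the opposite one. The expression row of ADH4 ends at 99157792, beyond its RefSeq start at 99144297, so the ADH4 window lies within the span of that row.
ADH4 (chr4:99144298-99144547, minus strand): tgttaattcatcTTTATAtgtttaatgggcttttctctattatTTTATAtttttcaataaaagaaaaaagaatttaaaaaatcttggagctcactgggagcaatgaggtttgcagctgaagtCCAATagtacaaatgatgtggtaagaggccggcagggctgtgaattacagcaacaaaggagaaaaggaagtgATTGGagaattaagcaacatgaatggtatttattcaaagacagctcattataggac
ADH6 (chr4:99219247-99219496, minus strand): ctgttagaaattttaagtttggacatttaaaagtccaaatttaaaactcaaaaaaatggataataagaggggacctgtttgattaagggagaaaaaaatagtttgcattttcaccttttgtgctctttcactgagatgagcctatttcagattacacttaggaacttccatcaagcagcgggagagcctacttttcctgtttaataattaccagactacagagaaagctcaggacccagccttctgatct
ALDH1A1 (chr9:72953054-72953303, minus strand): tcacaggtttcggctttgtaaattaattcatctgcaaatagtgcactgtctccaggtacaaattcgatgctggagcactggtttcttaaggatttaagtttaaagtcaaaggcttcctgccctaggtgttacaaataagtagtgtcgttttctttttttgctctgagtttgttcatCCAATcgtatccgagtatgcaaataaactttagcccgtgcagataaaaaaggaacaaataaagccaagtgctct

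In ADH4, CCAAT lay at -128 to -124 from the start and, on the other strand, at -56 to -52, with TATAAA on the other strand at -238 to -233 and -207 to -202. In ALDH1A1, CCAAT lay at -74 to -70, and neither motif was in the ADH6 window. Of 35116 RefSeq promoters of 300 bases, 250 before and 50 after a start, 34.6% held CCAAT and 11.5% TATAAA on either strand. The 15 such promoters of the 9 genes were also searched on both strands for a retinoic acid response element read as direct repeats of a hexamer, AGGTCA or, in other forms, AGTTCA and GGTTCA. None had a pair spaced by 5 bases, which 0.0883% of all promoters held, or by 2 bases, which 0.0399% held. A single AGGTCA, present in 13.8% of all promoters, was found in 1 promoter each of DHRS3 and RARA, and TGACNNNGC, the core of the antioxidant response element, present in 13.3%, in none of the 9 genes. No match says only that these letters are not in these windows.

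Of the 23 listed genes of retinol and retinal interconversion, 12 were tested, with 2 rises and 2 falls at 24 h, and 4 rises and 6 falls at 144 h around a median of -0.17 on the log2 scale. AKR1B10, an aldo-keto reductase that reduces retinal to retinol, rose most, from 174 ± 13.4 to 468 ± 13.5 FPKM at 24 h (1.43 on the log2 scale, limma adjusted p = 9.65e-10) and from 91.8 ± 5.68 to 440 ± 16.3 FPKM at 144 h (2.26, limma adjusted p = 1.82e-12). AKR1C3, another aldo-keto reductase, rose from 183 ± 6.67 to 313 ± 15.7 FPKM at 144 h (0.77 on the log2 scale, limma adjusted p = 3.13e-09), although it has close paralogs with which reads can be shared. ADH5, the ubiquitous class III alcohol dehydrogenase, was above ADH6 in level and fell from 68.9 ± 1.51 to 59.6 ± 1.43 FPKM at 144 h (-0.21 on the log2 scale, limma adjusted p = 3.61e-05). RDH10, the main retinol dehydrogenase of the embryo, rose slightly, from 8.68 ± 0.107 to 9.88 ± 0.344 FPKM (log2 fold change 0.19, limma adjusted p = 0.00259).

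ALDH1A1 and AOX1 act on retinal, which both can oxidise to retinoic acid. ALDH1A1 (gene 216, chr9:72900671-72953053), the retinal dehydrogenase of adult liver, measured 258.05, 261.33 and 269.93 FPKM in untreated and 325.4, 320.36 and 332.53 FPKM in exposed spheroids at 24 h. It rose by 23.9% (log2 fold change 0.31, SE 0.028, limma adjusted p = 8.63e-06), the largest TPN effect among the 9 genes at that time by size of log2 fold change. At 144 h it measured 153.15, 154.57 and 146.52 FPKM without and 223.02, 218.85 and 223.54 FPKM with TPN, a rise of 46.5% (log2 fold change 0.55, SE 0.028, limma adjusted p = 3.31e-09) that stayed under the DEG threshold in all 22 alternatives, which gave values from 0.53 to 0.57.

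AOX1 (gene 316, chr2:200585952-200679150) encodes aldehyde oxidase, a cytosolic molybdoenzyme of drug and aldehyde oxidation. It measured 8.44, 8.97 and 9.88 FPKM in untreated and 10.12, 9.49 and 9.62 FPKM in exposed spheroids at 24 h, which overlap (log2 fold change 0.10, limma adjusted p = 0.311). In the later libraries it measured 7.78, 7.38 and 7.36 FPKM without and 13.49, 14.09 and 13.39 FPKM with TPN. AOX1 was 1.82-fold higher with no overlap (log2 fold change 0.85, SE 0.056, limma adjusted p = 3.69e-08). The third synthesis enzyme tested, ALDH8A1, which favours 9-cis-retinal, fell at both times and went from 2.19 ± 0.33 to 0.967 ± 0.117 FPKM at 144 h (-1.10 on the log2 scale, limma adjusted p = 4.68e-06). ALDH1A2 and ALDH1A3, the other retinal dehydrogenases, did not exceed a group mean of 0.0533 FPKM and were not tested.

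RARA (gene 5914, chr17:40306183-40357767), the retinoic acid receptor alpha, did not pass the test in any of the 5 comparisons, although with the median of ratios it did over time in exposed spheroids (0.18). It measured 4.42, 4.38 and 4.22 FPKM in untreated and 4.59, 4.28 and 4.19 FPKM in exposed spheroids at 24 h, and 4.17, 4.37 and 4.18 FPKM without and 4.34, 4.66 and 4.14 FPKM with TPN at 144 h. All 4 groups overlapped. The log2 fold change with TPN was 0.00 at 24 h with a 95% confidence interval from -0.13 to 0.14 (limma adjusted p = 0.982), and 0.04 at 144 h with an interval from -0.09 to 0.18 (limma adjusted p = 0.575). Of the 6 receptors listed, 4 were tested, and the one that passed was RARG at 144 h, from 0.593 ± 0.0351 to 0.893 ± 0.0737 FPKM (log2 fold change 0.52, limma adjusted p = 0.0169). RXRA, a heterodimer partner of these receptors, measured 16.8 ± 0.237 and 17.1 ± 0.104 FPKM (limma adjusted p = 0.606).

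The remaining retinoid genes were read from lists by role. Among 11 genes known to respond to retinoic acid 4 were tested, with 2 falls at 24 h, and 2 rises and 1 fall at 144 h around a median of 0.35 on the log2 scale; without CRABP2, it was 1 rise and 1 fall among 3 at 144 h, and a median of -0.06. CRABP2, described above, rose, as did TGM2, a tissue transglutaminase, from 7.22 ± 0.385 to 12.3 ± 0.145 FPKM (log2 fold change 0.76, limma adjusted p = 4.47e-08), while DHRS3 fell. CYP26A1, the main enzyme of retinoic acid breakdown and a strong target of the receptors, was below the filter, at 0.547 ± 0.0987 FPKM without and 0.13 ± 0.0173 FPKM with TPN at 144 h, and got no test. Of 9 genes of retinyl ester storage and turnover 6 were tested, of which 1 rose and 4 fell at 144 h. The rise was that of CES1, a carboxylesterase able to cleave retinyl esters, from 4.96 ± 0.861 to 17.0 ± 0.665 FPKM (log2 fold change 1.77, limma adjusted p = 1.66e-08).

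The KEGG map of retinol metabolism, as annotated in the table, held 56 genes, of which 26 were tested; there were 2 rises and 7 falls at 24 h, and 11 rises and 10 falls at 144 h. Without the 6 of the 9 genes that it includes, 8 of 20 rose and 7 fell at 144 h, and 6 were DEGs, upwards, with a median log2 fold change of -0.05. Of the 6, UGT1A1 and UGT2B4 met the filter only through the spheroids exposed for 144 h. Their means were 0.308 and 0.284 FPKM in the other libraries. That entry fixed their direction, and both are among the 11 and the 8 rises and in the median. Without them 13 of 18 changed, 7 of these downwards, and 4 were DEGs. Among all genes that met the filter without those libraries 52.3% changed and 9.09% were DEGs. The 6 DEGs were conjugating or cytochrome P450 enzymes of broad substrate range. UGT1A1, a bilirubin and drug glucuronosyltransferase, went from 0.21 ± 0.0721 to 3.15 ± 0.468 FPKM (log2 fold change 3.41, a description), and shares exons with UGT1A6, so their split is uncertain. CYP2B6 rose from 2.42 ± 0.134 to 6.21 ± 0.135 FPKM (log2 fold change 1.32, limma adjusted p = 4.29e-09), and UGT1A6, CYP2S1, UGT2B4 and CYP1A1 had log2 fold changes of 1.62, 0.99, 0.79 and 0.71. At 24 h the map had 1 DEG, CYP3A7, the fetal liver CYP3A enzyme, with a log2 fold change of -1.14 (limma adjusted p = 2.67e-05).

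**Figure D3:**
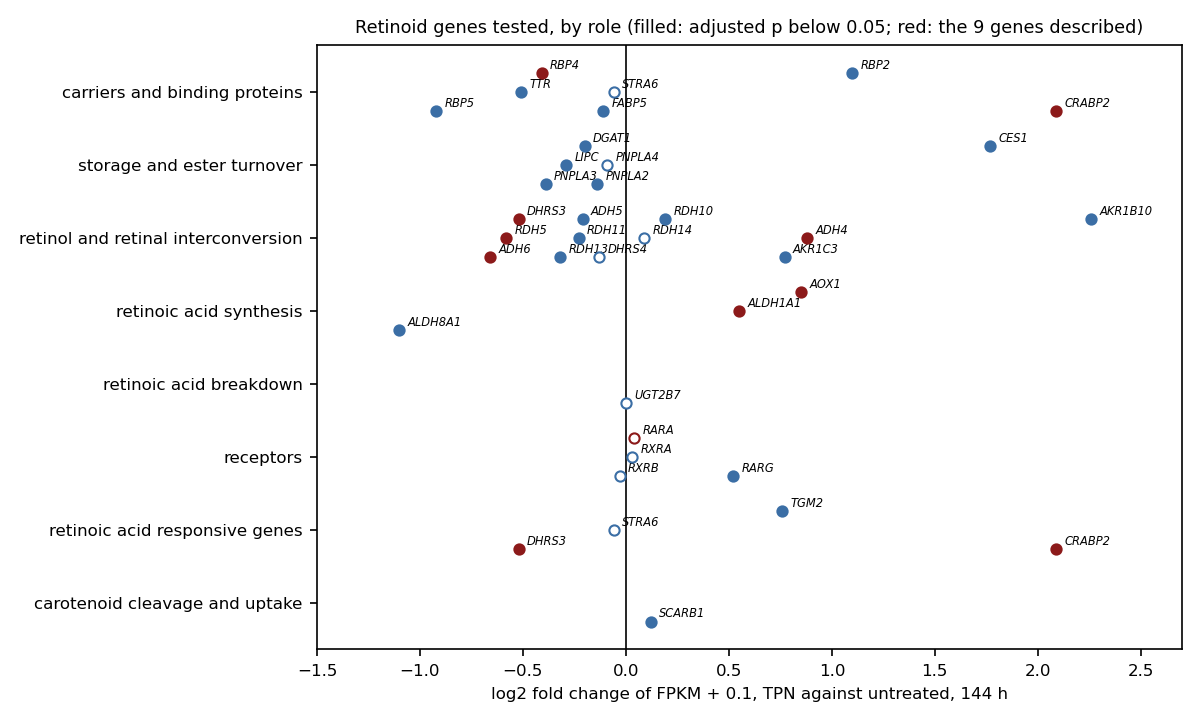
Log2 fold change (FPKM + 0.1) of TPN-exposed against untreated spheroids at 144 h for every gene tested of the 8 role lists, with the 9 genes in red and the others in blue; filled points have an adjusted p below 0.05 and vertical offsets only separate the labels. Each of the 3 lists with most genes tested has filled points on both sides of 0, from -0.92 (RBP5) to 2.26 (AKR1B10).

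An interaction term tested for each gene whether TPN acted differently at the later time. It differed for 7 of the 9 genes, against 30.4% of all genes tested (14.1% higher, 16.3% lower), upwards for CRABP2, ADH4, ALDH1A1 and AOX1 and downwards for RBP4, DHRS3 and ADH6. The entry of CRABP2 through its level after 144 h of TPN favoured its difference; without it 6 of 8 genes differed, against 30.4% of the genes that met the filter without those libraries. AOX1 had a difference of 0.75 on the log2 scale (SE 0.080, limma adjusted p = 1.7e-05) and ADH4 one of 0.84 (SE 0.185, limma adjusted p = 0.004), both beyond 0.58, which 5.87% of all genes tested passed. CRABP2 had a value of 2.01 with the widest error of the 9 (SE 0.686, limma adjusted p = 0.0407), given as a description, and it lost the call in 13 of 20 alternatives, with an adjusted p of up to 0.0915. RBP4, DHRS3, ADH6 and ALDH1A1 differed by -0.32, -0.28, -0.39 and 0.24, in each case as a larger effect at 144 h in the same direction. The difference for RDH5, -0.45, did not pass (limma adjusted p = 0.0892), except without replicate 2 of the untreated spheroids at 144 h, where it was -0.60.

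Between 24 h and 144 h in untreated spheroids 1 of the 9 genes rose and 5 fell, no larger a share than among all genes, against 72.6% of all genes tested, 20.1% higher and 52.4% lower, and 3 were DEGs, against 19%. Over all genes tested the median was -0.18 on the log2 scale in FPKM, and near 0, at -0.008, after scaling by the median of ratios, so changes are also given relative to that median. ADH4 fell by 64.3%, from 4.22 ± 0.366 to 1.51 ± 0.117 FPKM (log2 fold change -1.42, -1.24 relative to the median, limma adjusted p = 3.39e-07). ADH6 had a log2 fold change of -1.08 (-0.90 relative to the median, limma adjusted p = 5.8e-10), and ALDH1A1 of -0.80 (-0.61 relative, limma adjusted p = 3.12e-11). DHRS3 was the gene that rose, with 0.19 (0.37 relative, limma adjusted p = 0.00658).

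The smaller time changes depended on the scaling. RBP4 had a log2 fold change of -0.11 (limma adjusted p = 0.0101) that was 0.07 with the median of ratios and lost its call without replicate 2 of the untreated spheroids at 24 h. AOX1 had one of -0.27 (limma adjusted p = 0.000645), which was -0.10 and did not pass with the median of ratios. CRABP2, at 0.72 (limma adjusted p = 0.198), passed without replicate 2 of the untreated spheroids at 144 h, with 1.30. Stellate cell markers fell over the same time: 7 of the 9 tested, with a median log2 fold change of -1.82. COL1A2, COL3A1, TAGLN and THY1, which are among the 7 and in the median, met the filter only through their levels at 24 h. In untreated spheroids their means went from 1.21, 3.48, 2.18 and 1.05 FPKM to 0.273, 0.503, 0.427 and 0.0833 FPKM. In exposed spheroids they went from 1.22, 3.05, 1.73 and 0.93 FPKM to 0.09, 0.127, 0.413 and 0.04 FPKM. Their entry favoured their falls, and the median of -1.82 is the value of COL1A2 itself. The summed level of the stellate cell markers went from 180 to 185 FPKM at 24 h to 216 to 225 FPKM at 144 h, LOX being the one that rose. What part of the 9 genes' changes goes with that shift was not tested.

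**Figure D4:**
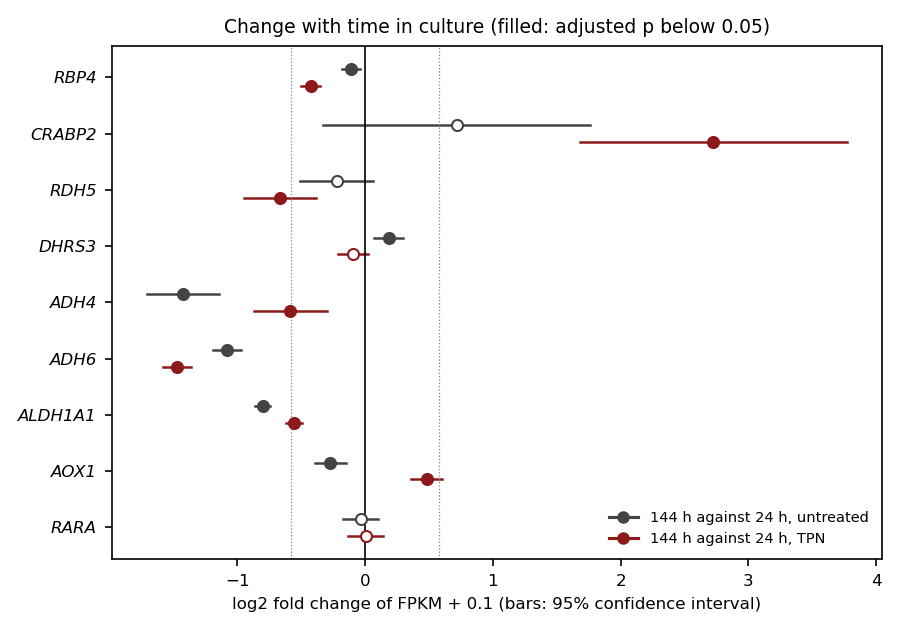
Log2 fold change (FPKM + 0.1) of 144 h against 24 h in untreated and in TPN-exposed spheroids for the 9 genes; lines are 95% confidence intervals filled points have an adjusted p below 0.05, and dotted lines mark 0.58. The median of all genes tested is -0.18 in both comparisons; ADH4 lies at -1.42 without and at -0.58 with TPN, and AOX1 at -0.27 and 0.48.

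In exposed spheroids 2 of the 9 genes rose between the times, CRABP2 and AOX1, and 5 fell, against 76.2% of all genes tested, 24.2% higher and 52% lower, and 4 were DEGs, against 26.7%. CRABP2 was tested here, too, only because of its level at 144 h; of the other 8 genes 1 rose, 5 fell and 3 were DEGs, against 76.1% changed and 26.3% DEGs among genes that met the filter without those libraries. AOX1 had a log2 fold change of 0.48 (0.67 relative to the median, limma adjusted p = 2.73e-06) and CRABP2 of 2.72 (2.91 relative, a description). ADH6 fell by 64.2%, from 25.4 ± 1.16 to 9.07 ± 0.242 FPKM (log2 fold change -1.47, -1.29 relative to the median, limma adjusted p = 1.68e-11), the lowest level of that gene in any group. RBP4, RDH5, ADH4 and ALDH1A1 had log2 fold changes of -0.43, -0.67, -0.58 and -0.56, or -0.24, -0.48, -0.40 and -0.37 relative to the median. With the median of ratios RDH5 (-0.50) and ADH4 (-0.41) were no longer DEGs. AOX1 became a DEG with the median of ratios and with quantile normalization, and reached at most 0.66 over the alternatives. DHRS3, which rose with time in untreated spheroids, was at -0.09 (limma adjusted p = 0.128). Its sign turned to 0.08 with the median of ratios and 0.09 with quantile normalization. Leaving out single libraries gave values from -0.1331 to -0.0356. Without replicate 3 of the exposed spheroids at 144 h it passed the test (limma adjusted p = 0.0487).

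Over the 12 libraries the pattern of each gene was compared with that of every other gene tested by Pearson correlation of log2(FPKM + 0.1), as a description, since the libraries share 4 groups. RBP4 and RDH5 were alike (r = 0.92), as were ADH4 and ALDH1A1 (0.94), and DHRS3 and AOX1 were opposed (-0.86). Outside the 9 genes, the closest to ALDH1A1 were MAT1A, CPLX2 and TSPAN14 (0.998, 0.996 and 0.996), and to ADH6 EZR, STARD10 and ADD1 (0.997, 0.996 and 0.996). For RBP4 they were CREB1, GPT and ANPEP (0.990, 0.990 and 0.987), for ADH4 TASOR2, MYO5B and MRPS25 (0.981, 0.980 and 0.977), and for AOX1 ABR, SRPX2 and APMAP (0.978, 0.977 and 0.976). The closest were less alike for RDH5, with WDR70, ARL2 and RWDD1 (0.954, 0.954 and 0.944), for CRABP2, with ABTB1, RRAS and JAK1 (0.951, 0.946 and 0.942), and for DHRS3, with GPC6, SERPINF2 and ERBB3 (0.950, 0.946 and 0.943). How common such likeness was differed: 2892 genes had r above 0.9 with ADH6, 37 with DHRS3, and 0 with RARA, whose closest was YIPF5 (0.819).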

How the data were processed

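RNA of 12 libraries was measured by strand-specific RNA sequencing on DNA nanoballs, 3 in each of 4 groups by the labels. The authors filtered the reads, aligned them to GRCh38.p13 with HISAT2 (v2.0.4) and mapped them to transcripts with Bowtie2 (v2.2.5), and calculated expression with RSEM. The values used are the FPKM values as deposited by the authors, given to 2 decimals; their own test, DESeq2, needs read counts, which were not used here. Whether counting used the strand is not given in the sources used here. Of the table's lines, 20 named no gene and were left out. The columns of expression all belong to the 12 samples.

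Values were taken as log2(FPKM + 0.1), so fold changes of low genes are understated. Genes with a mean of at least 0.5 FPKM (11713) were fitted with limma (3.58.1, R 4.3.3; 1 mean per group over all 12 libraries, trended variance) and p-values adjusted over them (Benjamini-Hochberg); all p-values are two-sided. The script was tested on simulated data. Depth was estimated from the FPKM steps of 53 low, short genes, where 95.5% of 330 values above 0 lay within 0.2 of a whole fragment. The named genes were the 9 genes, DEGs and counted members of the retinoid lists, and the 3 closest profiles to each. The 9 genes and the lists were chosen with earlier results of these data known. 1 listed gene is not reported here, and the counts and medians of the lists are without it. Alternatives were the pseudocount, the filter, scaling by equal totals, the median of ratios or quantiles, the variance trend, the thresholds, a replicate block, and each replicate left out. RefSeq promoter sequences (GRCh38.p14) were matched by gene number for all 9 genes, and Python 3.11.15 was used.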

Additional observations from a re-analysis of the deposited data

Results flagged for a closer look

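For 7 of the 9 genes the effect of TPN at 144 h differed from that at 24 h by the interaction term (limma, 3 libraries per group). The difference in log2 fold change was -0.32 for RBP4, 2.01 for CRABP2, -0.28 for DHRS3, 0.84 for ADH4, -0.39 for ADH6, 0.24 for ALDH1A1 and 0.75 for AOX1. Among all genes tested 30.4% passed the same test, so an effect of TPN that differed between the times was common. Since culture age and exposure time run together, the term cannot tell them apart. CRABP2 met the filter only through its level after 144 h of TPN, which favoured its difference; without it 6 of 8 genes differed, against 30.4% of the genes that met the filter without those libraries. The call for CRABP2, which rests on an estimated 22.2 fragments at most in a library, is the one of these that alternatives removed. Replicate 2 of the untreated spheroids at 144 h was lower than the other 2 in RDH5 (2.19 against 3.04 and 3.09 FPKM) and CRABP2 (0.08 against 0.49 and 0.52 FPKM), and no test for single libraries was run.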

How the results depend on the processing

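With the adjusted p alone and no fold threshold, the number of the 9 genes called was 3 for TPN at 24 h (0 with it), 8 for TPN at 144 h (5 with it), 7 for the interaction (3), 6 for time in untreated (3) and 7 for time in exposed spheroids (4), and over all genes 1230, 6144, 3565, 8498 and 8925 (107, 1110, 687, 2230 and 3123). With a fold threshold of 1, the 9 genes gave 1 for TPN at 144 h, 1 for the interaction and 2 for time in exposed spheroids, and all genes gave 30, 326, 213, 626 and 1027 in that order of comparisons. For TPN at 144 h and for the interaction the gene called was CRABP2 (log2 fold changes 2.09 and 2.01). For time in exposed spheroids the genes were CRABP2 (2.72) and ADH6 (-1.47). CRABP2 met the filter only through its level after 144 h of TPN, which favoured its calls. Without CRABP2 no call among the 9 genes was left for TPN at 144 h or for the interaction. With a mean of at least 5 FPKM required, which removes CRABP2, RDH5, ADH4 and RARA, the 9 genes gave 2, 1 and 1 for TPN at 144 h, the interaction and time in exposed spheroids, and all genes gave 59, 523, 282, 1337 and 2029. With a pseudocount of 1, the 9 genes gave 2 for time in exposed spheroids, and all genes gave 58, 698 and 435 for TPN at 24 h, at 144 h and the interaction.

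Leaving out each library in turn moved the counts of the 9 genes to between 4 and 5 for TPN at 144 h and to between 2 and 3 for the interaction. For time the counts lay between 3 and 4 in untreated and between 3 and 4 in exposed spheroids, and for TPN at 24 h the count stayed at 0. Read by the adjusted p alone, 924 of the single values under all alternatives kept direction and side of the threshold, 15 no longer passed, 4 newly passed and 18 changed sign, most of them in RARA and all of them where the value was small or not called, apart from RBP4 over time in untreated spheroids. With the median of ratios that value was 0.0677, DHRS3 over time in exposed spheroids was 0.0833 (0.0852 with quantiles), and RARA over time in untreated spheroids was 0.1412 (0.0884 with quantiles), which follows the shift of the median of all genes. RARA over time in exposed spheroids passed the test with the median of ratios, at 0.1807. With equal totals RARA was -0.0057 for TPN at 24 h and -0.0120 over time in exposed spheroids. Leaving out single libraries gave values from -0.4495 to 0.36 for CRABP2 and from -0.0510 to 0.11 for ADH4 with TPN at 24 h, and for RARA from -0.0343 to 0.0300 at 24 h, from -0.0001 to 0.0834 at 144 h, from -0.0036 to 0.0798 for the interaction and from -0.0365 to 0.0469 over time in exposed spheroids. By both thresholds, DEG calls were lost in 25 cases: CRABP2 for the interaction in 13 of 20 alternatives, RDH5 for TPN at 144 h in 4 of 21 and over time in exposed spheroids in 3, and ADH4 over time in exposed spheroids in 5. DEG calls were gained by AOX1 over time in exposed spheroids in 2 alternatives. CRABP2 over time in untreated spheroids and RDH5 for the interaction each gained the call in 1 alternative. The causes of these changes were not tested.

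The replicate numbers showed no clear pairing of the libraries. The correlation of deviations ran from -0.083 to 0.151 over 18 pairs with the same number, 5 of them above 0.1. Its mean was 0.048 for the same number and -0.024 for other numbers, and 8 of 12 libraries had the higher mean correlation with their own number. With the replicate block the 9 genes gave 0, 5, 2, 3 and 4 DEGs, and all genes 111, 1108, 679, 2230 and 3124. Depth limits CRABP2 most, for which 1 fragment is worth an estimated 0.076 FPKM.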
